A study of Mus musculus with 12 samples.

Results

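The region described here is the 3′ part of the mitochondrial 16S ribosomal RNA (rRNA) of the mouse, read base by base. It was chosen by position alone, as chrM:1885-2675 of the mm10 genome. It holds 791 of the 16292 mitochondrial bases listed in any library, of which 8 were absent from some library. The gene, mt-Rnr2, runs from position 1094 to position 2675 on the forward strand, so these are bases 792 to 1582 of the 16S rRNA, and the base after them, 2676, is the first base of the leucine tRNA gene mt-Tl1. The bases are 276 A, 158 C, 144 G and 213 T, written with T as in the files. Total RNA of mouse hearts was sequenced in 12 libraries, 3 each of PTCD1 knockout (KO) without treatment, wild type (WT) without treatment, KO after CMC and WT after CMC. CMC is a carbodiimide that stays bound to pseudouridine, where it can stop or disturb reverse transcription. Cytoplasmic rRNA had been removed from all 12 libraries, while the mitochondrial rRNAs were left to be sequenced. Age, sex, strain, the construction of the knockout and the number of animals behind a library are not stated in the sources used here, so p-values measure the spread between these libraries, which may be technical.

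The 16S rRNA is the RNA core of the large subunit of the mitochondrial ribosome. Its 3′ part folds into the peptidyl transferase centre, where peptide bonds are made. In human cells this part carries a pseudouridine made by RPUSD4 and ribose methylations made by MRM1, MRM2 and MRM3. The rRNAs and tRNAs of mitochondria are cut from long precursors: RNase P cuts at the 5′ end of a tRNA and ELAC2 at its 3′ end, so the cut before mt-Tl1 also frees the 3′ end of the 16S rRNA. PTCD1 is a pentatricopeptide repeat protein of mitochondria. The comparisons ask how the 16S rRNA of hearts without it differs in amount, ends and CMC-sensitive bases.

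Stretches of this RNA that carry results are given 5′ to 3′ on the forward strand, from the reference base in the deposited tables. A pair of bases with deletions after CMC lies at chrM:2024-2065, with the neighbouring T and G at positions 2044 and 2045 in capitals. The stretch with the steps lies at chrM:2340-2380, with capitals at the bases after which the depth fell, 2357, 2358 and 2360. The gene end lies at chrM:2626-2695, with capitals at positions 2650 to 2660, over which the depth of WT libraries fell.
Pair with CMC deletions: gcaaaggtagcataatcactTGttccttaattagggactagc
Stretch with the steps: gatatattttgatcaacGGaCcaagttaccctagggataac
Gene end: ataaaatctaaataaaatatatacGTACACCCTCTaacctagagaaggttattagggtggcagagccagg

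Ptcd1 itself had 28, 17 and 19 reads in untreated KO libraries and 78, 71 and 74 in untreated WT libraries. After CMC it had 23, 21 and 20 reads in KO and 79, 103 and 74 in WT, so the genotypes did not overlap. The heart muscle genes Myh6, Tnnt2 and Actc1 had at least 10155 reads in every library, and the liver gene Alb had at most 1. Total counts ran from 10389398 to 12462093 per library. The median depth of the 791 bases, in reads over a base, was 53175 to 54431 in untreated KO, 380677 to 389710 in untreated WT, 42011 to 49948 in KO after CMC and 360931 to 411618 in WT after CMC. Depth reached 900000 or more at 54 positions between 1885 and 2299, in WT libraries only, and no value exceeded 999218, so the depth there may have been limited. Among WT libraries after CMC, replicate 3 had forward reads for 52.0% of its depth against 47.9% and 47.5% in replicates 1 and 2, and replicate 1 had mismatches at 0.169% of its base reads against 0.118% at the lowest. Both stood apart from their group, and counts that turn on them are given with and without them.

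The 3′ part of the 16S rRNA was about 7 times scarcer in KO hearts than in WT hearts. Its mean depth per 1000000 nuclear gene counts was 18850, 19900 and 19150 in untreated KO libraries and 145300, 143900 and 141800 in untreated WT libraries. The groups lay far apart, and the KO to WT difference was -2.90 on the log2 scale, a 7.45-fold lower level (exact permutation test, two-sided, p = 0.10, the smallest that 3 against 3 libraries allow). After CMC the difference was -2.76 (exact permutation p = 0.10). In bulk tissue, fewer cells of a type and less RNA per cell cannot be told apart. By base, limma on log2 depth with Benjamini-Hochberg adjustment over all mitochondrial positions called 773 of the 791 bases lower in untreated KO, while 20.1% of all positions were called lower and 76.7% higher. The 773 lower bases ran without a gap from 1885 to 2657, with differences of -3.29 to -1.08. The last 18 bases, 2658 to 2675, were called higher in KO. After CMC the same stretch of 773 bases was lower, with 11% of all positions called lower, and 17 bases were higher, with 78.2% of all positions called higher.

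The loss was uneven along the RNA. In untreated libraries WT exceeded KO by 6.12-fold over bases 1192 to 1291 of the 16S rRNA and by 8.71-fold over bases 1492 to 1582, the smallest and largest folds of 8 windows of 100 bases, the last one shorter. The window with the smallest fold holds position 2289, where WT depth may have been limited, and the part of such a limit in this order was not tested. After CMC the folds ran from 4.86 over bases 1192 to 1291 to 8.74 over bases 892 to 991. The 3′ part had less depth than the 5′ part in every library. The log2 ratio of their mean depths was -0.40, -0.44 and -0.44 in untreated KO and -0.19, -0.17 and -0.17 in untreated WT, so the groups did not overlap. Their difference was -0.25 in untreated libraries and -0.24 after CMC (exact permutation p = 0.10 for both). Depth relative to the whole 16S rRNA was called lower in untreated KO at 660 bases and higher at 71, against 52.1% of the gene's bases called lower and 21.7% called higher. The lower bases lay from 1926 to 2292 and from 2361 to 2653, and the higher ones from 2311 to 2360 and from 2655 to 2675. After CMC 489 bases were lower and 123 higher, with 53.7% and 15% called over the gene, and a run of 25 higher bases from 2500 to 2524 appeared around position 2509, described further on as the deletion site.

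**Figure D1:**
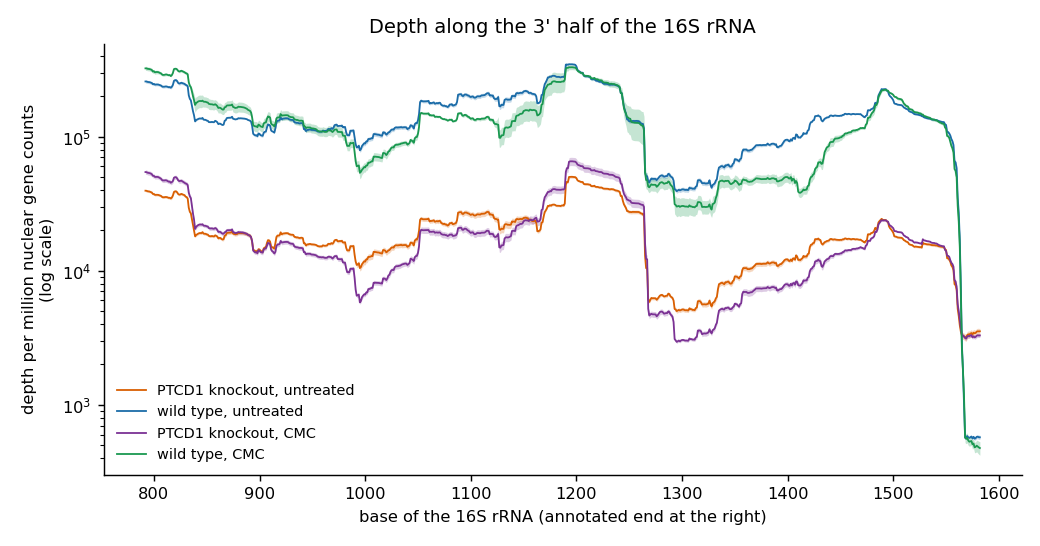
Depth per 1000000 nuclear gene counts (log axis) against the base of the 16S rRNA, as the mean of 3 libraries per group with a band of 1 SD. KO lines run below WT lines until the 3′ end, where they cross over the last 18 bases. The sharp fall in the middle follows base 1264 in all groups.

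Position 2289 was the highest point of the profile in all 4 groups, at 50100 ± 1170 (SD, n = 3) per 1000000 nuclear counts in untreated KO and 346000 ± 3740 in untreated WT, within the stretch of possibly limited depth. Positions 2310, 1885, 1913 and 2330 were further peaks at least 20 bases apart, and their order differed between groups. Before the gene end, position 2388 was the lowest in 3 groups, at 5000 ± 184 in untreated KO and 39200 ± 1380 in untreated WT. In WT after CMC position 2421 was lower, at 28500 ± 3590 against 30000 ± 4820 at 2388, a gap within the spread of the libraries. At the gene end, position 2670 was the lowest of the 5 troughs in untreated libraries and in WT after CMC. In KO after CMC position 2388 was lower, at 2940 ± 75.8 against 3180 ± 101 at 2670. Position 2670 was the only trough of the 5 where KO was above WT, with 3410 ± 194 against 559 ± 15 in untreated libraries (SD, n = 3).

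At the 3′ end the genotypes parted. In WT the depth fell to almost nothing before the annotated last base, while in KO part of the depth ran on into mt-Tl1. Relative to the mean depth of positions 2616 to 2635, depth at the last base, 2675, was 22.1%, 23.8% and 22.5% in untreated KO and 0.40%, 0.420% and 0.426% in untreated WT. After CMC it was 20.1%, 20.7% and 19.8% in KO and 0.388%, 0.292% and 0.342% in WT. Every KO library lay far above every WT library. The amount itself was also higher in KO, with 3532 ± 185 (SD, n = 3) reads at 2675 per 1000000 nuclear counts against 572.2 ± 20.9 in WT. Depth over the first 20 bases of mt-Tl1, divided by that over positions 2646 to 2665, had a log2 value of -0.63, -0.62 and -0.63 in untreated KO and -5.96, -5.84 and -5.80 in untreated WT. The difference was 5.24, or 37.8-fold, and after CMC 5.17, or 36.0-fold (exact permutation p = 0.10 for both). Depth fell within positions 2646 to 2665 in both genotypes, so a ratio to them is not the share of depth that ran on. That share is better read from the lower percentages at 2675 given above, which are relative to positions before the fall.

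The fall itself lay over the same few bases in both genotypes, and in untreated libraries measures of its position differed on which genotype fell first. Depth first dropped below 50% of that of positions 2616 to 2635 at 2652 or 2653 in all 6 KO libraries and at 2650 or 2651 in all 6 WT libraries, so the genotypes did not overlap. Untreated KO levelled off between 20.4% and 22.8%, so the 50% mark lies further down its fall than that of WT. The later crossing in KO therefore does not show that its fall lay later. The depth lost from reverse reads was largest after position 2650 in every KO library and after 2653 in every WT library, and the other of these positions came next in each, at 16.7% to 22.9% of the loss. Its mean position was 25.02 ± 0.040 bases before the end in untreated KO and 23.92 ± 0.095 in untreated WT (SD, n = 3). The genotypes overlapped in this mean position after CMC, at 23.69 to 24.01 bases before the end in KO and 23.33 to 24.73 in WT. Depth in untreated WT then fell from 12.4% at position 2656 to 2.01% at 2658 and 0.412% at 2661, whereas untreated KO stayed at 25.2%, 21.2% and 20.6% at these bases. From 2662 to 2675 KO lay between 20.4% and 22.8% and WT between 0.405% and 0.425%.

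**Figure D2:**
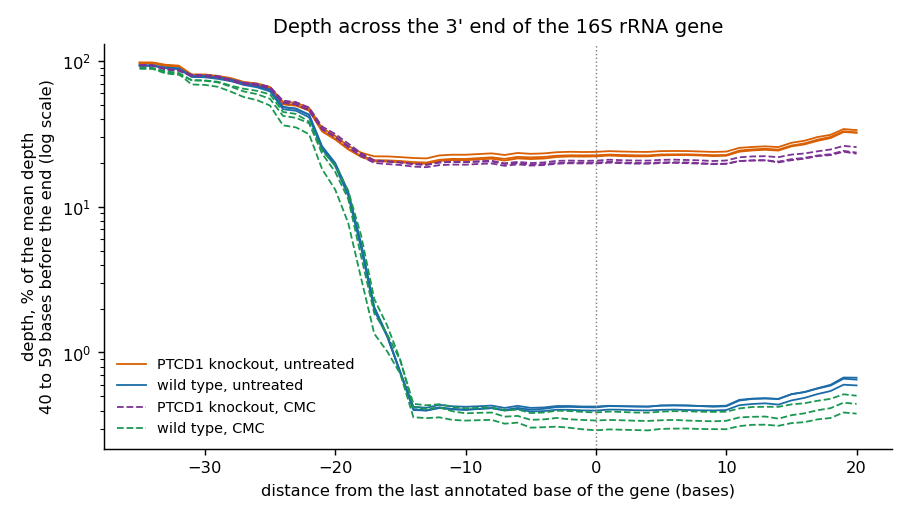
Depth as a percentage of the mean depth 40 to 59 bases before the end (log axis) against the distance from the last annotated base, 1 line per library. All lines fall steeply toward about 20 bases before the end. KO lines then level off near 20% and WT lines near 0.4%.

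A step is the log2 depth of the following base minus that of a base, with 1 added to each depth. The largest differences of steps lay at this 3′ end. After position 2657 the step was -0.10, -0.08 and -0.10 in untreated KO and -1.44, -1.41 and -1.41 in untreated WT, without overlap, and the difference was 1.32 (limma, adjusted p = 2e-06). The steps after 2656, 2659, 2660 and 2658 were also shallower in KO, by 1.04, 0.81, 0.80 and 0.63, with adjusted p of at most 3.89e-05 in limma. After CMC all 5 were called again, with differences of 1.17 at 2657, 1.0 at 2656, 0.98 at 2660, 0.60 at 2659 and 0.48 at 2658. The calls after CMC at 2656, 2658 and 2659 were each lost without any 1 of 5 of the 6 libraries, the exception being WT replicate 3, and that at 2657 without KO replicate 3. Over the whole stretch 142 bases had a called step in untreated libraries, 81 higher and 61 lower, against 5% of all positions called higher and 5.33% called lower. Of these, 129 differed by under 0.1, and 14 had a step of at least 0.2 in either group. Position 2643, with steps near -0.20 in KO and -0.17 in WT, and position 2255, with -0.21 and -0.17, were the other large steps that were deeper in KO besides those described next. Their calls were lost without any 1 KO library, and also without WT replicate 1 at 2643 and without WT replicate 2 or 3 at 2255.

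In the middle of the 3′ part the depth fell at a GGAC stretch, and KO lost more of it than WT at the later G and at the C. After position 2357, a G, depth fell in all libraries, with steps of -0.96, -0.97 and -0.99 in untreated KO and -1.04, -1.15 and -1.07 in untreated WT. After position 2358, also a G, KO libraries had steps of -0.30, -0.31 and -0.31 and every WT library one of -0.09, a difference of -0.21 (limma, adjusted p = 2.37e-05). The 3 untreated KO libraries had steps of -0.78, -0.78 and -0.77 after position 2360, a C, where each untreated WT library had -0.13, a difference of -0.65 (limma, adjusted p = 2.64e-07). KO thus kept 58.5% of its depth past position 2360 and WT 91.5%.

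The fall lay on the reverse reads. Past position 2360, 63.1% ± 0.359 (SD, n = 3) of reverse reads ended in untreated KO and 19.4% ± 0.359 in untreated WT. Past position 2357 the shares were 57.2% ± 0.656 and 70.1% ± 1.74. With forward reads only, the KO to WT difference at 2360 was 0.0003. Scaled to nuclear counts, the reverse depth lost at 2360 was 4335 ± 136 in KO and 4302 ± 156 in WT, so it was about equal in amount in both genotypes although KO had far less 16S rRNA. At 2357 it was 12550 ± 398 in KO and 61690 ± 2930 in WT.

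After CMC the KO libraries had steps of -1.21, -1.29 and -1.18 past 2360, and the WT libraries had -0.09, -0.26 and -0.10. The CMC change was -0.45 in KO (limma, adjusted p = 4.46e-04) and -0.02 in WT (adjusted p = 0.820), and the changes differed by -0.43 (adjusted p = 9.41e-03). The KO to WT difference after CMC was -1.08 (adjusted p = 5.58e-03), a call lost without any 1 of the 3 KO libraries. After CMC 34 bases had called steps between the genotypes, 19 higher and 15 lower, against 0.399% and 0.374% of all positions. Without WT replicate 3 the count was 199, and without any 1 of the other libraries 3 to 11. Besides 2360, the large steps that were deeper in KO after CMC included that after 1931, a C, with -0.23, -0.24 and -0.22 in KO and -0.12, -0.09 and -0.14 in WT, a difference of -0.11 (limma, adjusted p = 0.0438). That call was lost without any 1 of the libraries but WT replicate 3, and with the replicate number as a block.

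**Figure D3:**
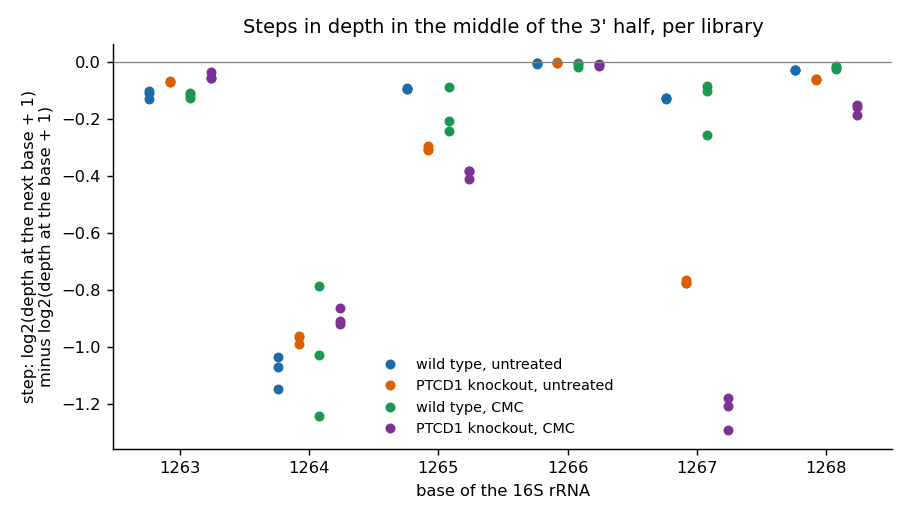
Step in depth after each of bases 1263 to 1268 of the 16S rRNA, positions 2356 to 2361, 1 point per library. At base 1267, KO points lie at -0.78 to -0.77 untreated and -1.29 to -1.18 after CMC, below all WT points.

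Many small steps were called after CMC. In WT 98 steps were higher (12.4%) and 115 lower (14.5%), against 7.59% and 5.71% of all positions. In KO 209 were higher (26.4%) and 214 lower (27.1%), near the 27.5% and 23.4% of all positions. In WT the count of 213 became 369 without CMC replicate 3, 43 without untreated replicate 3 and 48 without untreated replicate 1. It was 72 without untreated replicate 2 and 109 without CMC replicate 1. With the replicate number as a block it was 0, so the WT calls named below were all lost. Most were slight: 208 of the 213 called in WT and 418 of the 423 called in KO differed by under 0.1. Steps after position 2385 fell from near -0.21 to between -0.44 and -0.40 in KO, a change of -0.21 (limma, adjusted p = 3.65e-04), and a change of -0.13 in WT (adjusted p = 0.0371). Those after 2219 changed by -0.09 in both genotypes (limma, adjusted p = 1.45e-03 in KO and 2.31e-03 in WT). In KO, the steps after 2083 and 2358 changed by -0.12 and -0.09 (limma, adjusted p of at most 1.53e-03), that after 2357 by 0.07 (adjusted p = 0.0183, a call lost without untreated replicate 2 or 3), and those after 2255, 2643, 2144 and 2449 rose by 0.11, 0.09, 0.08 and 0.08, with limma adjusted p of at most 5.63e-03. In WT, the step after 2261 rose by 0.06 and that after 2660 fell by 0.19, both at limma adjusted p of 0.0227. The WT calls at 2261, 2385 and 2660 were each lost without any 1 of the untreated WT libraries and without CMC replicate 1.

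The CMC change of a step differed between the genotypes at 38 bases, 21 higher and 17 lower, against 0.767% and 0.793% of all positions, and at 327 without WT CMC replicate 3. One of the 38 lay just before the deletion site. After position 2502 the step was -0.08, -0.08 and -0.09 in untreated KO, -0.08, -0.08 and -0.08 in KO after CMC, -0.07, -0.06 and -0.06 in untreated WT and -0.23, -0.21 and -0.20 in WT after CMC. It changed in WT by -0.15 (limma, adjusted p = 2.60e-03), a call lost with the replicate number as a block. The changes of KO and WT differed by 0.15 (limma, adjusted p = 1.35e-04). The change lay on the reverse reads, since with forward reads only the WT change was 0.0051.

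The deletion site itself had the largest share of deletions of all 791 bases in WT after CMC, and a lower one in KO. At position 2509, base 1416 of the 16S rRNA, reads with the T deleted made up 0.316%, 0.512% and 0.270% of the depth in WT after CMC, from 380, 690 and 292 reads. In KO after CMC they made up 0.0911%, 0.0801% and 0.0581%, from 24, 20 and 13 reads, so each KO library lay below each WT library. The difference was -2.25 ± 0.30 (SE) on the log2 scale, a 4.76-fold lower share in KO (edgeR quasi-likelihood test with Benjamini-Hochberg adjustment, adjusted p = 3.56e-04). Deletion shares after CMC were lower in KO in general, with a median difference of -0.79 over the 280 tested bases. The whole difference at 2509 is therefore not particular to this base. Position 2509 had been singled out in earlier results of these data as the one with the smallest p. The exact binomial 95% intervals, which cover counting error only, were 0.240% to 0.552% over the WT libraries and 0.0310% to 0.135% over the KO libraries.

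Without CMC such deletions were almost absent. Untreated WT libraries had 11, 10 and 7 of them, or 0.00359%, 0.00335% and 0.00233%, and untreated KO libraries had 0, 0 and 1. The 0 of replicate 1, over a depth of 39689, allows a share of up to 0.00756%. CMC raised the share in WT by 6.86 on the log2 scale (edgeR, adjusted p = 5.61e-13) and the rise in KO was also called (adjusted p = 2.23e-12), with a size left uncertain by untreated KO counts at or near 0. For the same reason the difference of these changes, -0.48 (edgeR, adjusted p = 0.979), is poorly determined. Deletions were seen on both strands, with 0.359%, 0.601% and 0.331% of forward and 0.209%, 0.305% and 0.145% of reverse reads in WT after CMC.

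**Figure D4:**
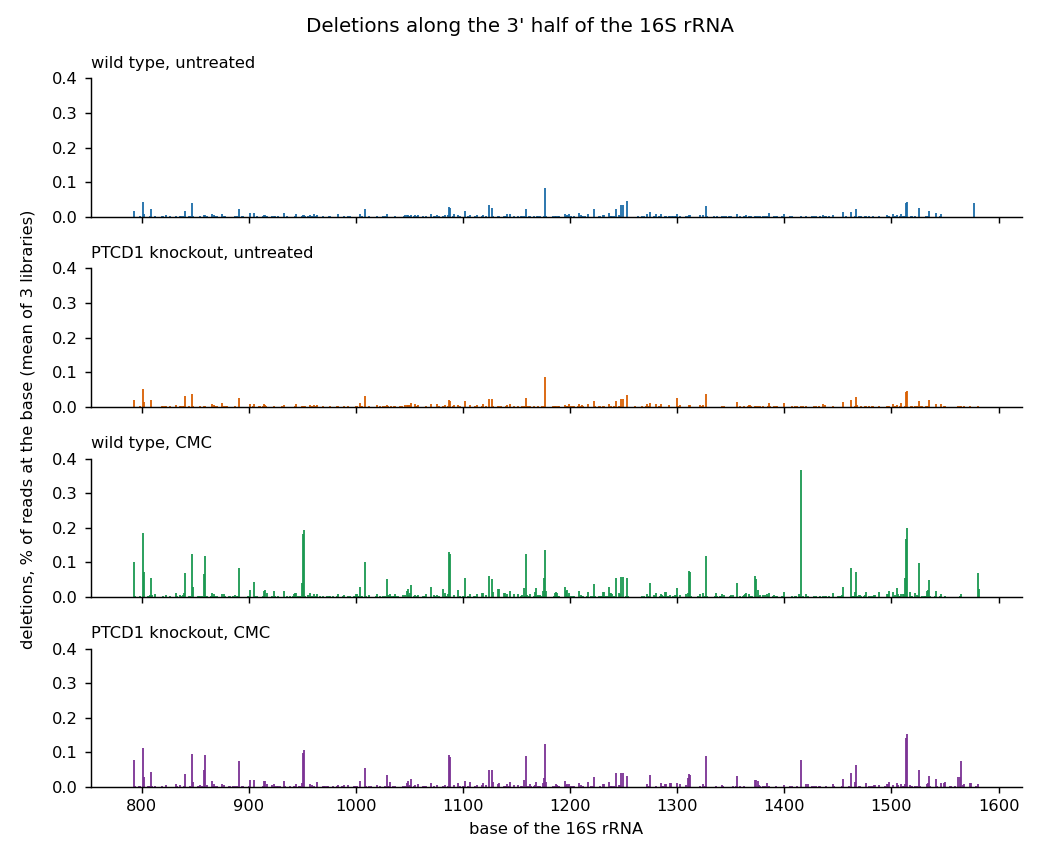
Deletions as a percentage of the reads at each base of the 16S rRNA, mean of 3 libraries, in 1 panel per group on a common axis. The tallest bar in WT after CMC stands at base 1416. In KO after CMC that bar is no taller than several others.

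Depth also sagged around this base after CMC, and more in WT. Depth at 2509 was set against the geometric mean of the depths 30 bases before and after it, a measure chosen after the profile had been seen. It stood at 92.5%, 93.6% and 93.5% in untreated WT and 57.5%, 58.4% and 58.0% in WT after CMC. In KO it stood at 90.5%, 90.4% and 91.1% untreated and 83.2%, 85.0% and 83.5% after CMC. All 4 groups were separate, with KO after CMC close to untreated libraries and WT after CMC far below. On the log2 scale CMC changed it by -0.69 in WT (limma, adjusted p = 1.41e-05) and by -0.11 in KO (adjusted p = 1.10e-04), and the changes differed by 0.57 (adjusted p = 4.32e-08). That was the smallest p of the 15520 positions tested, but the measure was chosen with this profile in view, so the rank is not independent support. The measure calls many positions, 115 higher and 180 lower among the 791, against 21.8% and 18.4% of all positions. The changes differed by 0.4 or more over 19 bases in a row, 2503 to 2521.

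**Figure D5:**
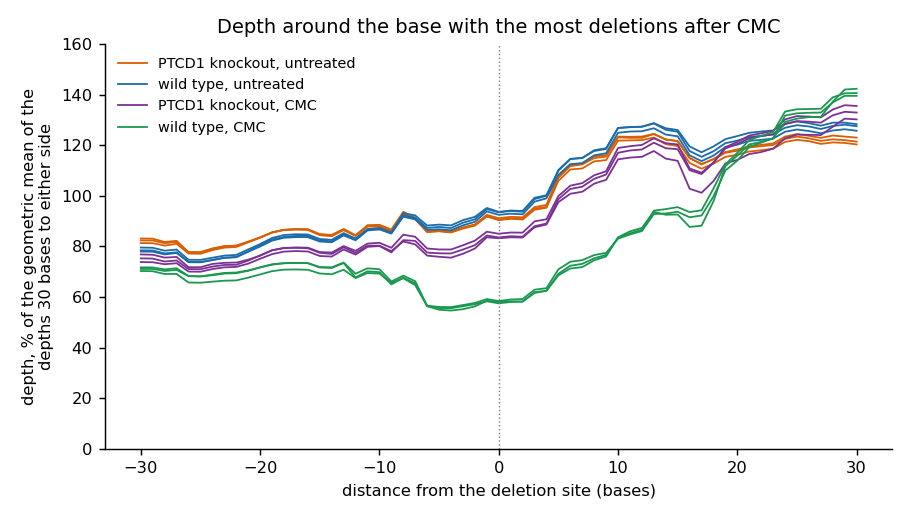
Depth as a percentage of the geometric mean of the depths 30 bases to either side, against the distance from position 2509, 1 line per library. The 3 WT libraries after CMC run near 58% at the site, KO after CMC near 84%, and the 6 untreated libraries near 90% to 94%.

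Deletions rose after CMC at many bases. In WT 204 of 316 tested bases had more deletions after CMC and 0 had fewer, against 68.3% of all tested positions higher. In KO 52 of 93 were higher and 0 lower, against 52.7% higher and 0.0502% lower. A base was tested only where deletions summed to at least 20 over the libraries of the fit. Deletions in WT were 0.00217% of base reads untreated and 0.00852% after CMC. Many bases thus entered through their CMC counts, so the lack of lower bases is partly set by this filter. Among tested T, 77 of 101 were higher in WT, and of A, C and G 69 of 113, 32 of 53 and 26 of 49. These are 76.2% of T, 61.1% of A, 60.4% of C and 53.1% of G, beside 75.2%, 64.1%, 64.9% and 65.0% over all mitochondrial positions, so T stood near the background. In KO these counts were 19 of 35 for T, 22 of 40 for A, 8 of 13 for C and 3 of 5 for G. The called share of T was 54.3%, beside 53.3% over all mitochondrial positions, so T stood near the background in KO too. The shares of A, C and G lay somewhat above theirs, from few tested bases for C and G.

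Among bases with a share of at least 0.1% in a group, the neighbouring T and G at positions 2044 and 2045 had the largest log2 rises in WT after that at 2509. Deletions at 2045 made up 0.196%, 0.256% and 0.131% in WT after CMC, 0.0943%, 0.119% and 0.106% in KO after CMC, and at most 0.00668% in any untreated library. CMC raised the share at 2045 by 5.28 in WT on the log2 scale (edgeR, adjusted p = 8.18e-12). The rise in KO was called too (adjusted p = 3.56e-19), but its size is uncertain, since untreated KO libraries had 1, 0 and 0 such reads, and the CMC changes of KO and WT were not called different (adjusted p = 0.477). At 2044 it rose by 5.69 in WT (edgeR, adjusted p = 8.18e-12). The KO to WT difference after CMC was -0.87 at 2045 and -0.91 at 2044 (adjusted p = 0.0863 and 0.0837). Both lay near the median differences of the tested G and T of this stretch, -0.87 and -0.92. In WT, deletions at 1952, a T, and 1886, an A, rose by 4.49 and 2.74 (edgeR, adjusted p = 9.20e-11 and 1.05e-08). In KO those at 2608, 2607, 1894 and 2270 rose by 1.77, 1.70, 1.11 and 0.55 (edgeR, adjusted p of at most 7.83e-04). Positions 2608, 2607, 1894 and 2270, with 2509, had the highest mean shares over all 12 libraries. At 2270 untreated libraries already had 0.0662% to 0.105%.

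Between the genotypes, deletions in untreated libraries differed at 0 of 160 tested bases (edgeR, with 29 at an unadjusted p under 0.05 and 0 by limma or DESeq2), against 0.492% of all tested positions. After CMC 6 of 280 were called, 5 lower in KO and 1 higher, against 1.07% lower and 0.0796% higher. Besides 2509 the lower ones were 2606, 2195, 2289 and 1895, by -2.56, -1.77, -1.58 and -1.36 on the log2 scale, and the higher one was 2643, by 2.90, with adjusted p in edgeR between 0.0275 and 0.0490. Without WT CMC replicate 3, 83 were called, and without any 1 of the other 5 libraries only 2509 was. Deletions over all bases of the stretch were 0.00635% of base reads in WT replicate 3 at the lowest and 0.0104% at the highest in that group. The CMC change differed between genotypes at 1895, 1934 and 1894, by -2.21, -1.71 and -1.06 (edgeR, adjusted p of at most 0.0297), with 0.264% of all tested positions lower. Those at 1934 and 1894 were lost in most fits that left out 1 library.

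Mismatches stayed rare at every base. The highest mean share in any group was 0.591%, and positions 2164, 2426, 1949, 2369 and 2605 had the highest means over all libraries. CMC raised mismatches mainly at C. In WT 62 of 774 tested bases were higher and 0 lower, against 3.85% of all positions higher, and 58 of the 62 were C. In KO 67 were higher and 31 lower of 791, against 10.1% and 4.99%, and 59 of the 67 were C. The called C were 37.7% of those tested in WT and 37.3% in KO, beside 14.4% and 36.5% of all mitochondrial C, so the KO share was near the background. The WT share was above it, but the size of the change was not. The median log2 change at C was 0.407 in WT and 0.295 in KO, beside 0.414 and 0.265 over all mitochondrial C. Of the 12 kinds of misreading, C read as T changed most. C was read as T at 0.0231%, 0.0233% and 0.0229% in untreated KO and 0.0733%, 0.0680% and 0.0708% in KO after CMC. In WT it was read as T at 0.0246%, 0.0243% and 0.0249% untreated and 0.0771%, 0.0821% and 0.0714% after CMC. The shares rose 3.06-fold in KO and 3.12-fold in WT, and no CMC library overlapped an untreated one. T read as C also rose without overlap, 1.20-fold in KO and 1.29-fold in WT. C read as A was 0.907 and 0.947 times its untreated share in KO and WT, and T read as A 0.909 and 0.908 times.

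Single C positions showed the size of this change. At 1912 mismatches rose by 1.64 in WT and 1.46 in KO on the log2 scale, from 0.0575% to 0.0776% in untreated libraries to 0.187% to 0.212% after CMC (edgeR, adjusted p = 2.35e-03 and 1.00e-16). In WT, 2633, 2446, 1945 and 2567 followed with rises of 1.44, 1.26, 1.21 and 1.19, and in KO 2446, 1953, 2567 and 2034 had rises of 1.62, 1.38, 1.3 and 1.23. In KO, mismatches fell by 1.21 at 2359, by 0.99 at 2382, by 0.78 at 2435, by 0.73 at 2098 and by 0.72 at 2534 (edgeR, adjusted p of at most 0.0216). The calls at 2382, 2435 and 2098 were each lost in DESeq2 and without either of 2 single libraries, 1 untreated and 1 after CMC. The 5 WT rises named were not called without untreated replicate 1, nor, apart from 1912, without untreated replicate 3. In WT the count of 62 was 164 without CMC replicate 1, 22 without CMC replicate 2, and 0, 19 and 1 without untreated replicates 1, 2 and 3. The CMC change of mismatches differed between genotypes at 0 bases (edgeR, with 22 at an unadjusted p under 0.05 and 0 by limma or DESeq2).

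In untreated libraries 11 mismatch positions differed between KO and WT, 4 higher and 7 lower, against 0.0793% and 0.159% of all positions. They clustered at both places where the depth steps differed. At the gene end, C at 2656 was misread in 0.233%, 0.221% and 0.288% of KO reads and 0.00606%, 0.00788% and 0.0235% of WT reads, a difference of 4.29 (edgeR, adjusted p = 1.97e-15). Positions 2657, 2655 and 2647 were higher too, by 3.55, 2.10 and 1.22 (adjusted p of at most 2.26e-03). At the step in the middle, 2359, 2358, 2360 and 2357 were lower in KO, by -0.89, -0.89, -0.80 and -0.70 (adjusted p of at most 0.0460), and away from it 2335, 1924 and 1923 were lower by -0.41, -0.37 and -0.35. The calls at 2335, 1924 and 1923 were each lost without any 1 KO library, without WT replicate 2 and in DESeq2. That at 2360 was lost without any 1 library but WT replicate 1, that at 2357 without KO replicate 1, KO replicate 3 or WT replicate 1, and those at 2358 and 2647 without KO replicate 3. By limma on log2 odds 0 of the 11 were called. With forward reads only, the difference at 2656 was -0.07 and 0 positions were called. After CMC 1 position, 2656, was called, by 4.10 (edgeR, adjusted p = 3.21e-03), against 0.0147% of positions higher and 0.022% lower, and 7 were called without WT replicate 1.

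Among 9 nuclear genes for enzymes that modify this part of the 16S rRNA or cut its 3′ end, 3 rose and 1 fell in untreated KO, against 29.2% and 28.7% of 12228 genes tested. Their median log2 change was 0.04, beside -0.003 for all genes. Elac2, which cuts the 3′ end of tRNAs, had 124, 143 and 182 reads in KO and 82, 65 and 78 in WT, and rose by 0.86 ± 0.12 (SE) on the log2 scale (edgeR, adjusted p = 6.39e-11). Trmt10c, a subunit of mitochondrial RNase P, rose by 0.52, and Mrm3, a ribose methyltransferase of the 16S rRNA, by 0.48 (adjusted p = 9.76e-05 and 2.39e-03). The other RNase P subunits did not pass, with 0.28 for the catalytic Prorp, listed as 1110008L16Rik, and -0.10 for Hsd17b10 (adjusted p = 0.251 and 0.259). Mrm2, another 16S ribose methyltransferase, had 8, 9 and 6 reads in KO and 15, 15 and 11 in WT and fell by 0.96 (adjusted p = 0.0190). That call was lost without KO replicate 3, WT replicate 1 or WT replicate 2, and in DESeq2. Rpusd4, the pseudouridine synthase, had 31, 26 and 19 reads in KO and 24, 29 and 14 in WT, overlapping groups with a difference of 0.04 (adjusted p = 0.900). Mrm1 changed by -0.09 and Trmt61b, which methylates an adenosine of human 16S rRNA, by -0.79 (adjusted p = 0.713 and 0.0587).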

How the data were processed

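The 12 libraries were made from total heart RNA with TruSeq chemistry after Ribo-Zero depletion, per the labels' protocols. The submitters' processing notes name mm10 and, without their roles, DESeq2 1.16.1, featureCounts 1.5.1, HISAT2 2.0.5 and SAMtools 1.5. The deposited per-base tables hold counts of reads, mismatches, deletions and insertions over each mitochondrial base and strand, made with pysamstats per the file headers, and the authors also deposited raw counts for each gene. Whether the counting used strand, and any batch, are not stated in the sources used here.

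Depth was scaled to the TMM effective size of the nuclear gene counts. Depth, depth relative to mt-Rnr2, and steps were tested with limma 3.58.1 on log2 values, with 1 added to counts. Steps, deletions and mismatches were tested only at positions with 100 or more reads in each library of the fit. Deletions and mismatches were tested by quasi-likelihood in edgeR 4.0.16 with log depth as offset where the counts summed to at least 20. Each p was adjusted by Benjamini-Hochberg over all tested mitochondrial positions, for relative depth those of mt-Rnr2 only, or over all genes. It was called at 0.05, in 5 comparisons. Single values used exact permutation tests over libraries. Intervals are exact binomial at 95%, and floors are 3 counts; both cover counting error only. Deeper WT libraries give more precise shares than KO libraries. Fits were tested on simulated data. The sequence of 1 stretch is not reported here.

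The text names, per comparison, up to 5 called positions each way with the largest differences among those with a step of at least 0.2 or a share of at least 0.1% in a group. It also names the 5 highest shares, the gene end, the profile's extremes and the listed genes. Called deletions and mismatches outside that rule were named where at most 11 were called. The stretch, the lists and the tests were chosen with earlier results of these data known. Alternatives left out each library, blocked by replicate number, used proper pairs, changed scaling, pseudocount, filters or tool, or left out positions within 150 bases of a depth of 900000; reads of 1 strand and the depth measure around position 2509 were added after the data were seen. Analysis used R 4.3.3 with DESeq2 1.42.0 as an alternative tool and tables read by the package data.table, version 1.17.8.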

Additional observations from a re-analysis of the deposited data

Results flagged for a closer look

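Some values differed between the genotypes in how they changed with CMC, by a test of the difference itself. Depth at position 2509 relative to its flanks, a measure chosen after the profile had been seen, changed less in KO than in WT. The difference was 0.573 on the log2 scale (limma, adjusted p = 4.32e-08) and stayed called in all 16 alternatives, from 0.35 to 0.81. The step after 2502, just before position 2509, differed by 0.15 (limma, adjusted p = 1.35e-04), called in 20 of 21 alternatives. The step after 2360 differed by -0.434 (limma, adjusted p = 9.41e-03), and was not called under the replicate block or with the reads of either strand alone. Steps after 1931, 2449 and 2660 differed by -0.105, 0.163 and 0.178 (limma, adjusted p of at most 0.0333), and were called in 18 of 20, 8 of 20 and 10 of 21 alternatives.

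For deletions the CMC change in KO minus that in WT was -2.209 at 1895, -1.714 at 1934 and -1.063 at 1894 (edgeR, adjusted p = 9.30e-05, 0.0165 and 0.0297). Positions 1894 and 1895 are neighbouring A, so a deleted base there can be placed at either, and replicate 3 of WT after CMC had the lowest share of its group at all 3 positions.

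Insertions, which no comparison used, were above every untreated library of the same genotype at position 2181 after CMC, with 0.053% on average over the 6 CMC libraries. They were at 0.0415% ± 0.0049 in KO and 0.0645% ± 0.0167 in WT after CMC, and at 0.0133% ± 0.0042 and 0.0162% ± 0.0016 without CMC (SD, n = 3).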

How the results depend on the processing

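The 6 values with exact permutation tests kept their direction in all 8 alternatives each. Their p could not fall below 0.10, so only a turned sign could have counted against them. They are included in the 263 alternatives that held. For counts of calls, to hold meant a count within 1.5 times the reported one, and 100 counts did not. The cause was not tested, except where fewer positions were tested. The deletion difference at 2509 between KO and WT after CMC ran from -2.59 to -1.93 and was called in all 15 alternatives. Forward or reverse reads alone were tried after the data were seen.

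Leaving out each library in turn gave, for steps, 70 to 134 calls between untreated genotypes, 3 to 199 after CMC, 43 to 369 for CMC in WT and 23 to 327 for the difference of CMC changes. For deletions it gave 0 to 1 untreated, 1 to 83 after CMC and 1 to 15 for the difference of CMC changes. For mismatches it gave 4 to 11 untreated, 1 to 7 after CMC and 0 to 164 for CMC in WT, and for depth relative to its flanks 211 to 492 for the difference of CMC changes. The counts of 199, 369, 327, 83, 15 and 492 came without WT replicate 3 after CMC, and the mismatch counts of 7 and 164 without WT replicate 1 after CMC.

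The labels give untreated and CMC libraries of a genotype the same numbers, so they may share a source, and the main fits did not pair them. Deviations of same-numbered libraries correlated at -0.111 to 0.070 over nuclear genes and at -0.629 to 0.228 over steps. Not every library correlated best with its own number. Over nuclear genes, untreated and CMC libraries of KO replicates 2 and 3 did, at 0.070 and 0.029. Such weak correlations cannot tell whether a source was shared. Over steps, the value of 0.228 was that of untreated KO and WT replicates 3, the 1 pair of steps that matched best by its own number. With the replicate number as a block, step calls were 46 untreated, 2 after CMC, 0 for CMC in WT and 8 for the difference of CMC changes, and mismatch calls for CMC in WT were 14.

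Without positions near limited depth, where fewer were tested, calls were 479 and 271 for depth and 436 and 211 for relative depth, untreated and after CMC. Step calls there were 66 and 13, with 94 for CMC in WT and 20 for the difference of CMC changes. A fit of all 12 libraries gave 62 step calls untreated, 180 after CMC and 383 for CMC in WT. It gave 32 deletion calls between genotypes after CMC and 96 for CMC in KO, and 1 and 2 mismatch calls between genotypes, untreated and after CMC.

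Reverse reads alone gave 20 step calls after CMC, 44 and 253 for CMC in WT and KO, and 23 for the difference of CMC changes, where forward reads gave 25. For deletions reverse reads gave 2 calls untreated, 18 after CMC, 26 for CMC in KO and 1 for the difference, and forward reads 1 after CMC and 34 for CMC in KO. For mismatches reverse reads gave 4 untreated, 6 after CMC, 171 and 64 for CMC in WT and KO and 1 for the difference, and forward reads 0, 0, 0 and 60 in the first 4.

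By limma on log2 odds, 1 deletion call was left after CMC and 0 for the difference of CMC changes, with 0 mismatch calls untreated and 25 for CMC in WT. DESeq2 gave 1 deletion call for the difference, and 6 and 65 mismatch calls untreated and for CMC in KO. With no minimum sum 23 deletions were called after CMC. With a minimum mean share of 0.1%, deletion calls were 1 after CMC, 5 and 1 for CMC in WT and KO and 0 for the difference, mismatch calls untreated were 4, and for deletions between untreated genotypes no position could be tested.

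Signs turned in 20 cases. With forward reads only, CMC changes in KO were -0.0025, 0.0265, -0.0611, -0.0049 and -0.0331 for steps after 2144, 2219, 2357, 2449 and 2643, and in WT 0.0422 and 0.0051 after 2219 and 2502. Between untreated genotypes forward reads gave steps of 0.0003, 0.1073 and -0.0067 at 2360, 2643 and 2660, and mismatch differences of 0.1108, 0.0885 and -0.0652 at 2357, 2360 and 2656. Reverse reads gave CMC changes of steps in WT of -0.0590 at 2261 and 0.0409 at 2385, and of mismatches in KO of 0.0794 at 2382. With libraries left out, the difference of CMC changes of deletions at 2509 ran from -1.015 to 2.7942, positive without untreated KO replicate 3. The KO to WT difference of Mrm1 ran from -0.1974 to 0.0005, positive without KO replicate 3, and that of Rpusd4 from -0.2105 to 0.2806, negative without KO replicate 1 or WT replicate 3.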
